A study of Homo sapiens with 11 samples.

Results

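The Sprouty and SPRED genes encode intracellular inhibitors of RAS and ERK signalling, and 6 of them were followed here: SPRY1, SPRY2 and SPRY4 of the Sprouty subfamily and SPRED1, SPRED2 and SPRED3 of the SPRED subfamily. They were chosen by name from 58721 genes in a table of read counts, and each name matched 1 gene of GENCODE release 29. All libraries are poly(A) RNA of A375, an established melanoma line of human origin in which a BRAF mutation keeps the kinase active. Every sample, the parental one included, is labelled wild type. One untreated parental library was compared with 5 libraries of cells kept in 2 nM trametinib for 8 weeks (persister cells) and 5 libraries of such cells after a further 4 weeks without drug (withdrawn cells). Trametinib blocks the MEK kinases, which phosphorylate ERK. The name of each withdrawn sample carries the number of a persister culture. The labels leave unsaid whether the 5 cultures were selected independently. The p-values therefore reflect spread among these samples alone, and that spread may be technical.

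Growth factor receptors activate RAS, and RAS activates the RAF, MEK and ERK kinases in turn. Active ERK induces transcription of Sprouty and SPRED genes in many cell types, and their proteins then restrain the pathway upstream of ERK, which makes them negative feedback regulators. Sprouty proteins bind adaptors and enzymes such as GRB2 and CBL, whereas SPRED proteins bring NF1, a protein that switches RAS off, to the membrane. In melanomas with mutant BRAF, transcripts such as SPRY2 and SPRY4 are widely used as readouts of ERK output.

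Levels are given as CPM, counts scaled for library size by TMM in edgeR, or as CPM per kb of exon where so stated. Libraries held between 56513920 and 82984566 counts, with scaling factors of 0.941 to 1.03. The lowest count of any member in any library was 556, so counting error was small beside the spread between cultures. A gene was called where edgeR's quasi-likelihood test gave an adjusted p (Benjamini-Hochberg, over 23693 genes) under 0.05. All 6 members passed the filter on low counts. The parental group holds 1 library and was taken to vary like the others. The 12 melanocytic markers did not move one way: against parental cells, 5 were called higher and 4 lower in persister cells. SOX10 stood at 635 CPM in parental, 29.2 to 86.6 in persister and 792 to 838 in withdrawn libraries. The pigment gene DCT went the opposite way, from 2.94 CPM in parental to between 229 and 740 in persister and between 16.4 and 64.1 in withdrawn libraries. TYRP1, MLANA and PMEL were also called higher in persister cells (34.99-fold, 13.96-fold and 4.35-fold), and TYR, which encodes tyrosinase, stayed under 0.1 CPM throughout.

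The genes lie on separate chromosomes of GRCh38: SPRY1 on 4 (123396795 to 123403760), SPRY2 on 13 (80335976 to 80340951), SPRY4 on 5 (142310427 to 142326455), SPRED1 on 15 (38252326 to 38357249), SPRED2 on 2 (65310851 to 65432637) and SPRED3 on 19 (38388421 to 38399587). No other gene of the annotation shares exon bases with any of them, although an antisense gene, SPRY4-AS1, overlaps the span of SPRY4. RefSeq's promoter table (GRCh38.p14) holds 11 windows for the 6 members, each from 250 bases before to 50 bases after a start. SPRY4, SPRY2 and SPRED1, like SPRED2 and SPRED3, were called lower in persister cells and higher after withdrawal. SPRY1 was called in neither comparison. For SPRY4, SPRY2, SPRED1 and SPRY1, the window with the most CpG dinucleotides is shown, 5′ to 3′. Capitals mark CCGGAA, a sequence bound by ETS factors and here called the ETS core. Shorter forms of it were not searched for.
SPRY4 (chr5:142324198-142324497, minus strand): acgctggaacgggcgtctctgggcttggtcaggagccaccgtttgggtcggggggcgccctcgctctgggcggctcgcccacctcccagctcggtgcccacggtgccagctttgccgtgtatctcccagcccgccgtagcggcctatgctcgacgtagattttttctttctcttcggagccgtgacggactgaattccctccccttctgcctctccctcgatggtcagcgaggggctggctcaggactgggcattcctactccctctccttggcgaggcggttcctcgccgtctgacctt
SPRY2 (chr13:80341077-80341376, minus strand): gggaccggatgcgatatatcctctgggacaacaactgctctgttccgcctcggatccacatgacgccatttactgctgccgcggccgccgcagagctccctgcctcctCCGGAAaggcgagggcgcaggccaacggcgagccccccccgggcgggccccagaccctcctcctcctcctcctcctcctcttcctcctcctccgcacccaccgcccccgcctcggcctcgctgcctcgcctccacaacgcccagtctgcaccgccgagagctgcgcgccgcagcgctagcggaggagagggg
SPRED1 (chr15:38252586-38252885, plus strand): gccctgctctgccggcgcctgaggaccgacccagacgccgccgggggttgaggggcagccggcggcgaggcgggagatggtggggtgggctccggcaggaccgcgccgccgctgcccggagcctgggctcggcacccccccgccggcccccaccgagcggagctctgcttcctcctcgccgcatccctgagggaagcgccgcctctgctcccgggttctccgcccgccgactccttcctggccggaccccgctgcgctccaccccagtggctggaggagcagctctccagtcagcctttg
SPRY1 (chr4:123398136-123398435, plus strand): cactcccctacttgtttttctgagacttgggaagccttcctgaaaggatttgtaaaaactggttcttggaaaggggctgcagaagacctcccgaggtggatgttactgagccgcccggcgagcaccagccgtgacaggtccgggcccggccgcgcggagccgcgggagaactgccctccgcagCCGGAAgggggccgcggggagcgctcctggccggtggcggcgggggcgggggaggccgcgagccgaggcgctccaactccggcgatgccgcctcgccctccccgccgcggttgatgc
These 4 windows are GC-rich, at 65.0% for SPRY4, 71.0% for SPRY2, 76.3% for SPRED1 and 69.3% for SPRY1, against a median of 58.7% over 35116 windows of the table. Both strands were searched for 4 motifs: the ETS core CCGGAA, the longer ETS site CCGGAAGT that contains it, the AP-1 site TGANTCA and the CRE site TGACGTCA. The ETS core occurred once in the SPRY2 window, starting 142 bases before the start, and once in the SPRY1 window, 67 bases before it. It occurs in 17.2% of all windows. CCGGAAGT and TGACGTCA, held by 4.14% and 1.85% of all windows, were found in no window of the 6 members. The AP-1 site, held by 7.71% of all windows, was found in 1 window of SPRED2 (TGACTCA and TGAATCA) and 1 of SPRED3 (TGACTCA). The SPRY4 and SPRED1 windows held none of these 4 motifs. The part of the motifs in the members' changes was not tested.

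The first comparison, of persister with parental cells, asks how the feedback inhibitors stood under prolonged MEK inhibition. Of the 6 members, 5 (SPRY2, SPRY4, SPRED1, SPRED2 and SPRED3) were lower in persister cells, and SPRY1 was not called. Over all genes tested, 15.1% were called lower and 16.1% higher, together 31.2%. The fall was steep for SPRY4 and SPRY2 and 1.59-fold to 1.96-fold for the 3 SPRED genes. The members' log2 fold changes had a median of -0.97, against 0.09 over all genes.

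**Figure D1:**
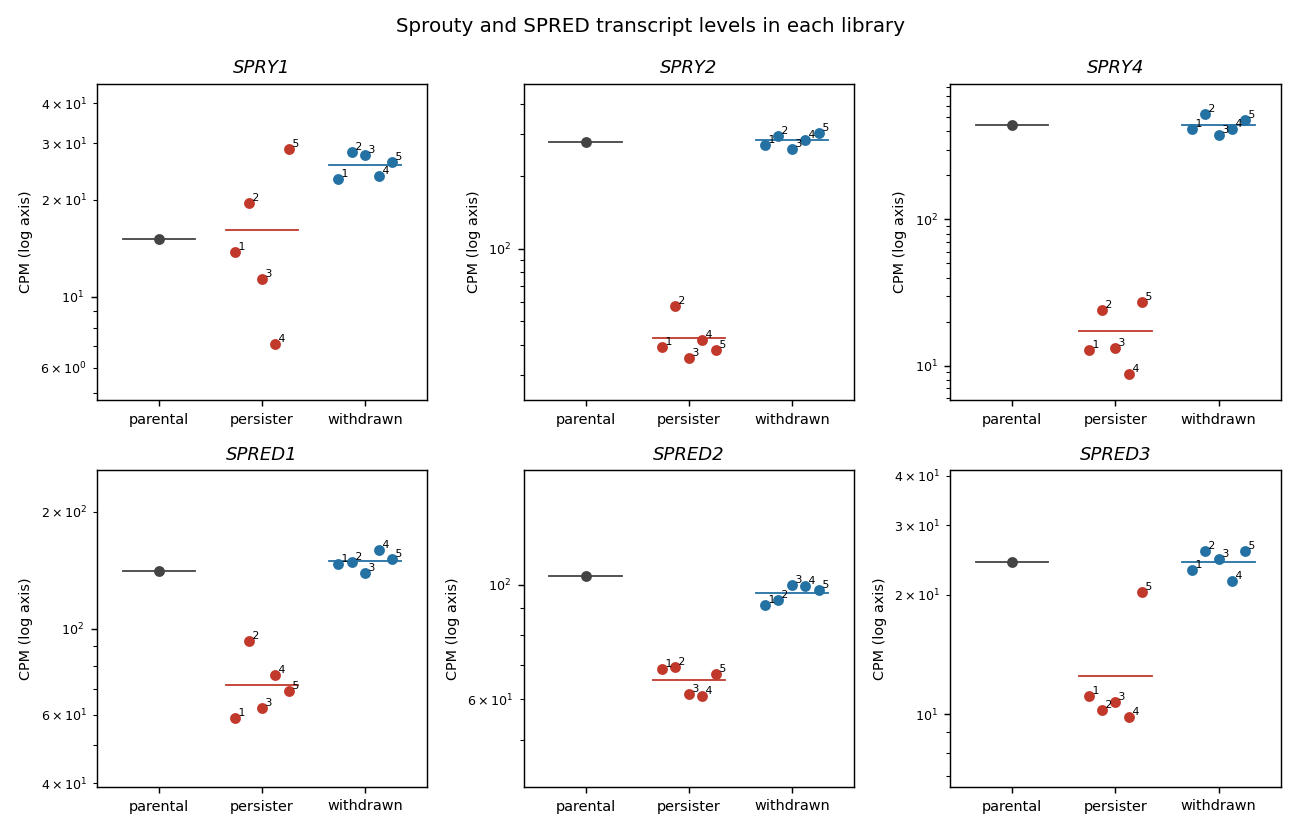
CPM of each member in every library, on log axes that differ between panels; points are libraries, numbered by culture, and lines are group means. Persister libraries sit below the parental library and below all withdrawn libraries for every gene but SPRY1, whose persister libraries range from 7.14 to 28.8 CPM.

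SPRY4, the member with the highest CPM in parental cells, stood there at 445 CPM and in persister cultures 1 to 5 at 12.8, 24.0, 13.2, 8.73 and 27.2 CPM. Cultures 2 and 5 were the highest and culture 4 the lowest, and none came near the parental level. The mean of 17.2 ± 7.95 CPM (SD, n = 5) was 25.9-fold lower (log2 fold change -4.70 ± 0.39 (SE), adjusted p = 1.55e-05 with edgeR). SPRY2, a Sprouty protein known to bind the ubiquitin ligase CBL, stood at 276 CPM in parental cells and at 39.2, 57.8, 35.3, 41.7 and 38.1 CPM in the 5 cultures. Culture 2 stood apart above the other 4. The SPRY2 mean of 42.4 ± 8.89 CPM (SD, n = 5) was 6.52-fold lower (log2 fold change -2.70 ± 0.18 (SE), adjusted p = 2.69e-06 with edgeR).

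SPRY1 did not follow them. It stood at 15.1 CPM in parental cells and at 13.8, 19.5, 11.3, 7.14 and 28.8 CPM in persister cultures 1 to 5, so 3 cultures were below and 2 above the parental library. The mean of 16.1 ± 8.38 CPM (SD, n = 5) gave a log2 fold change of 0.09 (95% interval -1.05 to 1.24, adjusted p = 0.906 with edgeR), an interval wider than a 2-fold change on either side.

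SPRED1, the gene altered in Legius syndrome, stood at 141 CPM in parental cells and at 58.7, 92.9, 62.3, 75.8 and 68.9 CPM in the 5 persister cultures. All 5 were below the parental library, with a mean of 71.7 ± 13.5 CPM (SD, n = 5), 1.96-fold lower (adjusted p = 0.00274 with edgeR). SPRED2, which like SPRED1 binds NF1, stood at 104 CPM and at 68.6, 69.3, 61.3, 60.8 and 67.1 CPM. Its cultures hardly differed, and its mean of 65.4 ± 4.06 CPM (SD, n = 5) was 1.59-fold lower (adjusted p = 0.00130 with edgeR). SPRED3 stood at 24.2 CPM in parental cells and at 11.1, 10.3, 10.8, 9.84 and 20.4 CPM in persister cultures. Culture 5 was close to the parental level and the other 4 were near 10 CPM, and the mean of 12.5 ± 4.45 CPM (SD, n = 5) was 1.94-fold lower (adjusted p = 0.0321 with edgeR).

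The 5 called members lay below the parental library in all 5 cultures, but 63.6% of all genes had no overlap between these groups, 1 of which is a single library. In a fit of only the 6 persister and parental libraries, which called 11.3% of genes, SPRY2, SPRY4 and SPRED2 remained called. SPRED1 (adjusted p = 0.0523) and SPRED3 (0.149) lost their calls there. SPRED3 also lost its call without persister culture 1 (0.0505) or culture 3 (0.0553). Over all 19 alternatives its adjusted p ranged from 4.98e-05 to 0.149 and that of SPRED1 from 2.19e-04 to 0.0523. The largest adjusted p of SPRED2 over these alternatives was only just under 0.05, so its kept call was narrow.

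The second comparison, of withdrawn with persister cells, asks whether the inhibitors returned without the drug, and it shares the persister libraries with the first. SPRY2, SPRY4, SPRED1, SPRED2 and SPRED3 were higher in withdrawn cells, in all 5 same-numbered pairs and with no overlap between the groups. Over all genes, 24.5% were called higher and 28.0% lower, together 52.5%, and 40.6% had no overlap. The members' log2 fold changes had a median of 1.00, against -0.03 over all genes. SPRY4 stood at 415, 529, 376, 413 and 476 CPM in withdrawn cultures 1 to 5. The lowest of these was 13.8 times the highest persister library, and the mean of 442 ± 60.7 CPM (SD, n = 5) was 25.7-fold higher (log2 fold change 4.69 ± 0.32 (SE), adjusted p = 8.68e-07 with edgeR). SPRY2 stood at 269.99, 295, 259, 283 and 303 CPM, with a mean of 282 ± 18.1 CPM (SD, n = 5), 6.65-fold higher (adjusted p = 7.09e-08 with edgeR).

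The SPRED genes rose less. SPRED1 stood at 146, 148, 139, 160 and 151 CPM in the withdrawn cultures, 2.08-fold higher on average (adjusted p = 2.05e-05 with edgeR). SPRED2 stood at 91.3, 93.6, 99.98, 99.3 and 97.9 CPM, 1.47-fold higher (adjusted p = 4.45e-05 with edgeR). SPRED3 stood at 23.1, 25.8, 24.6, 21.7 and 25.7 CPM, 1.94-fold higher (adjusted p = 0.00128 with edgeR). For SPRED3 the groups were separated by a narrow gap, the lowest withdrawn library being 1.07 times the highest persister library, that of culture 5.

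SPRY1 stood at 23.2, 28.1, 27.6, 23.8 and 26.2 CPM in the withdrawn cultures, a mean of 25.8 ± 2.19 CPM (SD, n = 5). It was higher than in the same-numbered persister culture in 4 of 5 pairs, the exception being culture 5. The log2 fold change of 0.68 ± 0.30 (SE) was not called (adjusted p = 0.0779 with edgeR). It was called without persister culture 5 (log2 fold change 1.00, adjusted p = 0.00447), with the culture number as a block (0.82, adjusted p = 0.0288) and with limma-voom (0.85, adjusted p = 0.0290). Over all 20 alternatives its adjusted p ranged from 0.00447 to 0.156.

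**Figure D2:**
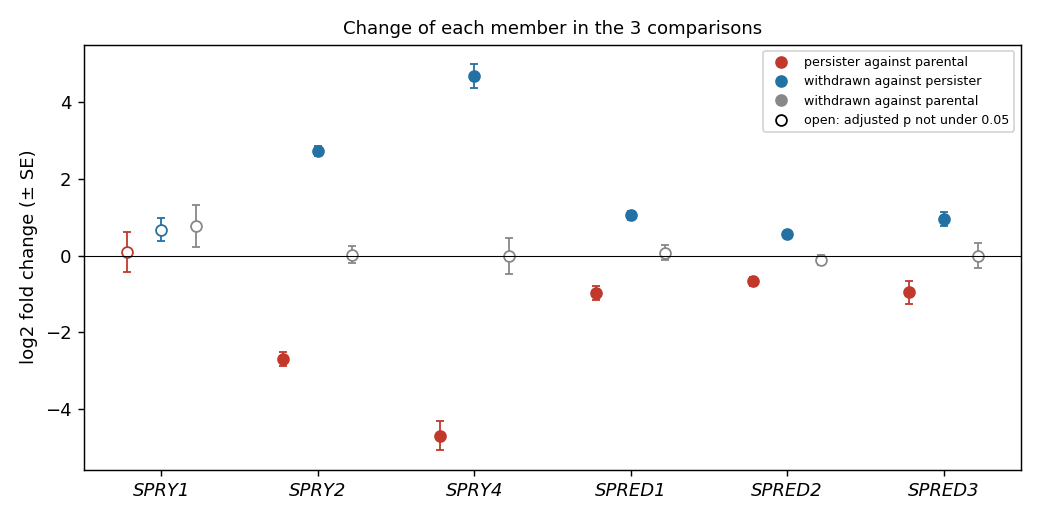
Log2 fold change of each member in the 3 comparisons, with standard errors as bars; filled points have an adjusted p under 0.05 (edgeR). The changes of SPRY4 are -4.70 and 4.69, those of the SPRED genes lie within 1.1 of 0, and all 6 points for withdrawn against parental cells are open.

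The third comparison, of withdrawn with parental cells, asks whether levels after the drug differed from those of untreated cells. No member was called, nor did any have an unadjusted p under 0.05 with edgeR, DESeq2 or limma-voom (0 of 6 each), and 0.431% of all genes were called. Mean levels in withdrawn cells were 102% of the parental level for SPRY2, 99.3% for SPRY4, 106% for SPRED1, 92.5% for SPRED2 and 99.9% for SPRED3. The log2 differences had 95% intervals of -0.44 to 0.50 for SPRY2, -1.04 to 1.03 for SPRY4, -0.36 to 0.52 for SPRED1, -0.37 to 0.15 for SPRED2 and -0.71 to 0.71 for SPRED3. SPRY4's interval spans a 2-fold difference on either side.

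SPRY1 and SPRED2 did not straddle the parental value. SPRY1 was above the parental 15.1 CPM in all 5 withdrawn libraries, at 171% of it on average (log2 fold change 0.77, 95% interval -0.43 to 1.98, adjusted p = 0.544 with edgeR). SPRED2 was below the parental library in all 5. Groups did not overlap for 63.8% of all genes in this comparison. Another fit used only the 6 withdrawn and parental libraries. SPRY1 was then the only member called (log2 fold change 0.76, adjusted p = 5.07e-04 with edgeR), beside 30.5% of all genes. Why the calls differed between the fits was not tested. The parental level rests on 1 library in either fit.

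The members changed by unequal amounts. For each of the 15 pairs of members, the log2 ratio of both within a library was compared between 5 persister and 5 withdrawn libraries with an exact two-sided permutation test, adjusted over the 15 pairs. Of these, 10 passed the exact permutation test, each with the smallest p that 5 against 5 can give (p = 0.00794, adjusted p = 0.0119). The ratio of SPRY4 to SPRY2 was higher in withdrawn cells by 2.05 on the log2 scale. The ratios of SPRY4 to SPRED1, SPRED3, SPRY1 and SPRED2 were higher by 3.73, 3.79, 3.97 and 4.24. SPRY4 thus changed more than every other member. The ratios of SPRY2 to SPRED1, SPRED3, SPRY1 and SPRED2 were higher by 1.68, 1.74, 1.92 and 2.19, and that of SPRED1 to SPRED2 by 0.51. The other 5 pairs, SPRY1 with each SPRED gene and SPRED3 with SPRED1 and SPRED2, did not pass (adjusted p from 0.0649 to 0.817, exact permutation test). An exact sign-flip test over the same-numbered pairs of cultures, the blocked form, cannot go below p = 0.0625 and passed 0 of 15.

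Levels of different members were compared per kb of exon in the annotation, which counts all annotated exons and so understates genes whose cells use a short isoform. In parental cells the order was SPRY2 (91.0 CPM per kb), SPRY4 (67.8), SPRED2 (20.2), SPRED1 (17.0), SPRED3 (4.13) and SPRY1 (3.81). In persister cells it was SPRY2 (13.96 ± 2.92 (SD, n = 5)), SPRED2 (12.7 ± 0.788), SPRED1 (8.68 ± 1.64), SPRY1 (4.06 ± 2.11), SPRY4 (2.62 ± 1.21) and SPRED3 (2.13 ± 0.760). SPRY2 exceeded SPRED2 in only 2 of 5 persister cultures, so their order is not resolved, and the ranges of SPRED1 and SPRY1, of SPRY1 and SPRY4, and of SPRY4 and SPRED3 overlapped. SPRED1 was nevertheless above SPRY1, and SPRY1 above SPRY4, in 5 of 5 cultures. In withdrawn cells the order was SPRY2 (92.8), SPRY4 (67.3), SPRED2 (18.7), SPRED1 (18.0), SPRY1 (6.50) and SPRED3 (4.13), with SPRED2 above SPRED1 in only 3 of 5 libraries.

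The summed level of the 6 members was 204 CPM per kb in parental cells, 37.8 to 54.0 in persister and 190 to 225 in withdrawn libraries. SPRY4 made up 33.2% of that sum in parental cells, 3.37% to 8.49% in persister and 30.2% to 35.8% in withdrawn libraries. SPRED2 went the other way, from 9.92% in parental to between 24.9% and 32.8% in persister libraries and 8.05% to 10.2% in withdrawn ones. The plot of stacked levels shows a family dominated by SPRY2 and SPRY4 in parental and withdrawn cells, and by SPRY2, SPRED2 and SPRED1 in persister cells.

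**Figure D3:**
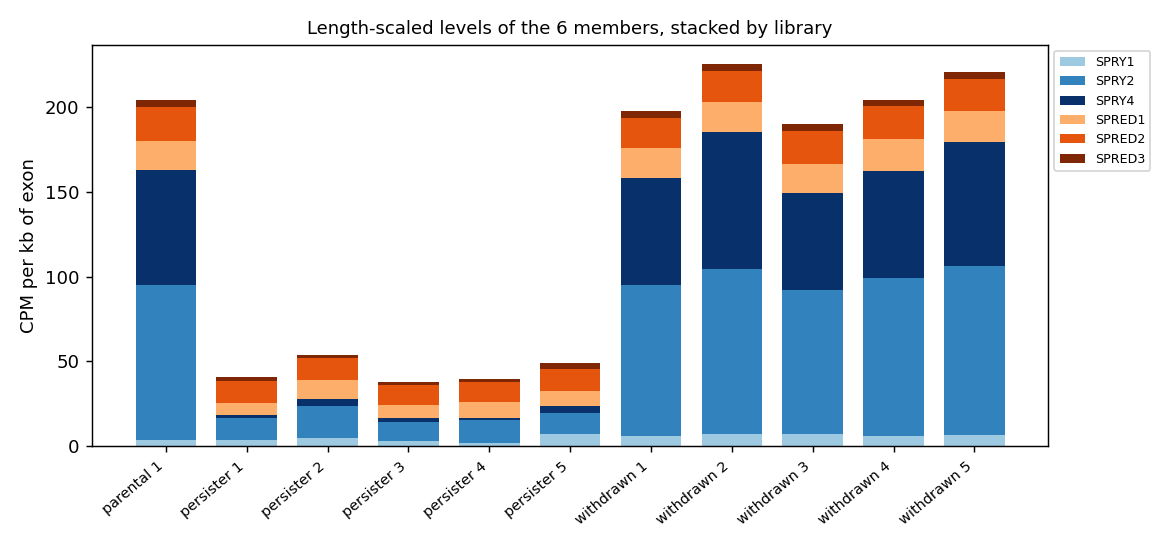
Levels of the 6 members in each library, in CPM per kb of exon, stacked with one colour per gene. The stacks reach 204 in the parental library, 37.8 to 54.0 in persister libraries and 190 to 225 in withdrawn libraries, and SPRY4 is a thin band in the persister stacks.

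Persister cultures differed from each other more than withdrawn cultures did for each of the 6 members. The highest persister library was 4.03 times the lowest for SPRY1, 3.11 times for SPRY4, 2.07 times for SPRED3, 1.64 times for SPRY2, 1.58 times for SPRED1 and 1.14 times for SPRED2. In withdrawn cells these ratios were 1.21, 1.41, 1.19, 1.17, 1.15 and 1.09. SPRY1, SPRY4 and SPRED3 were all highest in persister culture 5 and lowest in culture 4, whereas SPRY2, SPRED1 and SPRED2 were all highest in culture 2. Some of these places were near-ties. SPRED2 stood at 69.3 CPM in culture 2 and 68.6 in culture 1, and SPRED3 at 9.84 CPM in culture 4 and 10.3 in culture 2. DUSP6, an ERK phosphatase that is also a feedback gene, was highest in culture 2 too, at 33.1 CPM against 21.2 to 23.9 CPM in the other cultures.

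SPRY1 and SPRY4 moved in step between persister cultures although their group means behaved differently. Their log2 ratio (SPRY1 to SPRY4, in CPM) stayed between -0.29 and 0.10 in the 5 persister libraries, while each gene alone ranged over more than 3-fold. In withdrawn libraries the ratio lay between -4.23 and -3.77. A narrow range was not particular to this pair: the log2 ratio of SPRY2 to SPRED1 stayed between -0.86 and -0.58 in the persister libraries. Genes of DNA replication and mitosis also varied between persister cultures: the mean log2 CPM of 20 such genes was 4.49 in culture 5, 5.73 in culture 1 and 6.96 to 7.44 in the other 3, against 7.36 in parental and 7.10 to 7.23 in withdrawn libraries. SPRY1 and SPRY4 stood at 13.8 and 12.8 CPM in culture 1 and at 28.8 and 27.2 CPM in culture 5. Of the 20, MCM3 and MCM6, subunits of the replicative helicase, were called higher after withdrawal, beside 24.5% of all genes. Their means went from 98.6 to 146 CPM and from 59.1 to 111 CPM (adjusted p = 0.0481 and 0.0291 with edgeR). In persister against parental cells 0 of the 20 were called, beside 31.2% of all genes. The part of these genes in the members' results was not tested. Leaving out persister cultures 1 and 5 was an alternative chosen after seeing the data. SPRY1 was then called higher in withdrawn than in persister cells (log2 fold change 1.03, adjusted p = 0.0117 with edgeR). No other member's call changed.

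**Figure D4:**
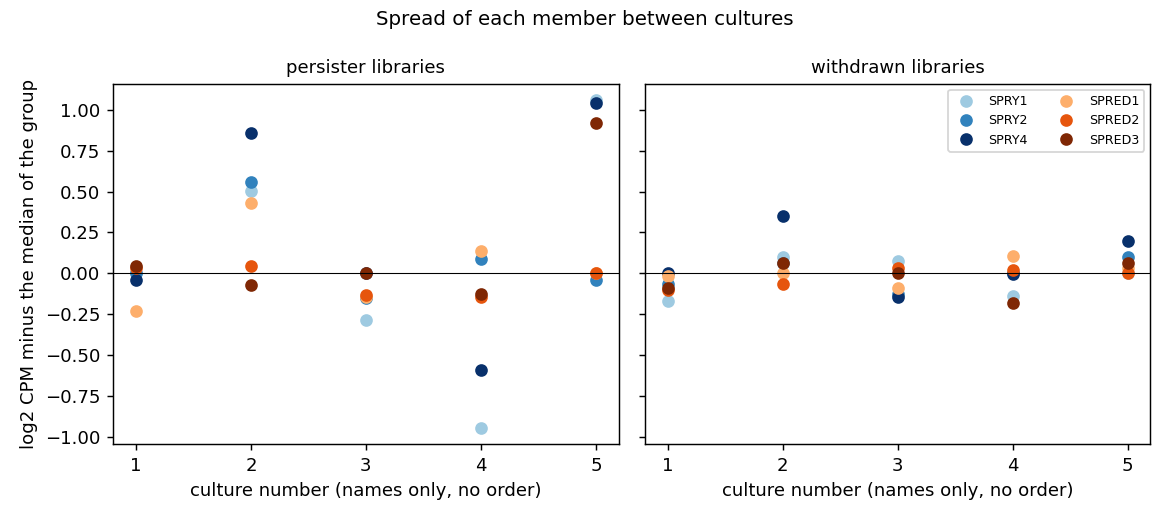
Log2 CPM of each member minus its median in the group, for the 5 persister and the 5 withdrawn libraries; culture numbers are names only. SPRY1, SPRY4 and SPRED3 stand highest in persister culture 5, and the withdrawn points lie close to 0.

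Other measures also differed between the groups. The mitochondrial share of counts was 2.96% in the parental library, 4.51% to 9.28% in persister and 3.15% to 3.70% in withdrawn libraries. The summed level of 9 fibroblast markers, all detected, was 19.7 CPM in parental, 84.0 to 386 in persister and 38.1 to 51.7 in withdrawn libraries, and against the parental library 6 of the 9 were called higher in persister cells and 1 lower. The sum of 8 keratinocyte markers was 42.3, 48.0 to 61.2 and 35.7 to 39.97 CPM in these groups, with KRT1 and PKP1 at 0 counts everywhere. KRT10 made up most of it (34.9 CPM in parental and a mean of 54.5 in persister cells), and 2 of 5 tested markers were called higher and 1 lower. The sum of 9 leukocyte markers was 7.16, 0.645 to 1.23 and 3.55 to 4.998 CPM, with CD2 at 0 counts everywhere. LYZ made up most of it in parental cells (6.79 CPM, against 0.169 in persister cells). By contrast PTPRC, the pan-leukocyte marker, was called higher in persister cells, from 0.0153 to 0.296 CPM. These levels of PTPRC are near the floor of detection. LYZ and PTPRC were the only 2 of 5 tested leukocyte markers called. The sum of 8 endothelial markers was 18.3, 4.99 to 22.3 and 17.3 to 27.5 CPM, most of it KDR (16.1 CPM in parental cells), with 2 of 6 tested markers called higher and 2 lower. Their part in the results was not tested. Fewer cells of a kind and less RNA per cell cannot be told apart in these bulk libraries.

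SPRY3, the remaining Sprouty gene and no member of the set, went in the opposite direction from SPRY2 and SPRY4. It stood at 1.33 CPM in parental cells, 3.71 to 6.74 in persister and 1.84 to 2.83 in withdrawn libraries. It was 4.05-fold higher in persister than in parental cells (adjusted p = 0.00298 with edgeR) and 2.25-fold lower after withdrawal (adjusted p = 4.00e-04 with edgeR). Its count is uncertain, because the gene lies in a region that the X and Y chromosomes share. SPRY4-AS1, the antisense gene that overlaps the span of SPRY4, moved as SPRY4 did. It stood at 3.27 CPM in parental, 0.353 to 1.09 in persister and 4.47 to 6.09 in withdrawn libraries (adjusted p = 0.00251 and 7.87e-06 with edgeR). Since the strand setting of the counting is not given in the sources used here, reads of both genes may be mixed, although their annotated exons share no bases.

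Among 20 other negative regulators of receptor, RAS and ERK signalling, SPRY3 included, 8 were lower and 3 higher in persister than in parental cells, and 9 higher and 6 lower after withdrawal. The 8 lower and 3 higher of 20 stand beside 15.1% and 16.1% of all genes, and the 9 higher and 6 lower beside 24.5% and 28.0%. The shares of genes that went up in persister cells and down after withdrawal were thus near those of all genes. Without persister cultures 1 and 5, 5 instead of 3 were higher. The list's median log2 fold changes were -0.30 and 0.17, against 0.09 and -0.03 over all genes. DUSP6 was 6.76-fold lower in persister cells (adjusted p = 1.31e-06 with edgeR) and 7.52-fold higher after withdrawal. RASA2, a protein that switches RAS off, stood at 43.1 CPM in parental, 6.67 to 11.5 in persister and 37.3 to 41.5 in withdrawn libraries (adjusted p = 2.40e-05 and 5.20e-07 with edgeR). DUSP9, an ERK phosphatase, fell from 4.47 to 0.422 ± 0.238 CPM (SD, n = 5), and DUSP5, a nuclear ERK phosphatase, from 29.7 to 12.6 ± 2.10 CPM. DUSP8, a phosphatase that acts on the stress kinase JNK, rose from 0.0918 to 5.78 ± 1.48 CPM (adjusted p = 4.84e-04 with edgeR) and stood at 0.0807 ± 0.0524 CPM after withdrawal.

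Of 27 reported binding partners and modifiers of Sprouty and SPRED proteins, 8 were lower and 3 higher in persister than in parental cells. These are 29.6% and 11.1% of the list, beside 15.1% and 16.1% of all genes. In the fit of 6 libraries the counts were 3 and 1, together 14.8% of the list beside 11.3% of all genes. After withdrawal 13 were higher and 6 lower, 48.1% and 22.2% beside 24.5% and 28.0%. The medians were -0.31 and 0.23 on the log2 scale. CBL, the ubiquitin ligase that Sprouty proteins bind, stood at 173 CPM in parental, 42.5 to 73.2 in persister and 133 to 143 in withdrawn libraries (adjusted p = 2.08e-04 and 1.20e-05 with edgeR). SH3KBP1, an adaptor of CBL, stood at 243, 48.8 to 88.3 and 202 to 256 CPM (adjusted p = 2.96e-04 and 7.63e-06 with edgeR).

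NF1, the partner of SPRED proteins, is in both the list of partners and that of other negative regulators. It stood at 221 CPM in parental cells, 134 ± 17.6 CPM in persister cells and 195 ± 6.53 CPM in withdrawn cells (SD, n = 5). It was lower in persister than in parental cells (log2 fold change -0.72, adjusted p = 0.00446 with edgeR), a call that ended in the fit of 6 libraries (0.0735), and higher after withdrawal (0.54, adjusted p = 4.68e-04). TESK1, a kinase reported to bind both subfamilies, went the other way, from 9.61 CPM in parental to 19.3 to 25.4 in persister and 8.56 to 10.1 in withdrawn libraries (adjusted p = 8.23e-04 and 1.70e-06 with edgeR). CAV1, the main protein of caveolae, changed most after withdrawal among the partners: it fell from 591 ± 350 to 127 ± 16.6 CPM (SD, n = 5, adjusted p = 0.00141 with edgeR), and its persister libraries ranged from 123 to 1042 CPM.

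In a list of 22 other transcripts used as readouts of ERK activity, 10 were lower and 0 higher in persister than in parental cells, and 15 were higher and 2 lower after withdrawal, with medians of -0.93 and 0.66. The lower calls made up 45.5% of the list in persister cells, beside 15.1% of all genes, and the higher calls 68.2% after withdrawal, beside 24.5%. The 0 higher in persister cells and the 2 lower after withdrawal stand beside 16.1% and 28.0% of all genes. In the fit of 6 libraries, 5 were lower (22.7% of the list, beside 11.3% of all genes called in either direction), and without persister culture 5, 1 was higher. Of the ETS factors ETV4 and ETV5, which ERK signalling induces, ETV4 stood at 142 CPM in parental, 8.45 to 23.2 in persister and 142 to 160 in withdrawn libraries, and ETV5 at 141, 38.8 to 55.3 and 134 to 147 CPM. EGR3, an immediate-early transcription factor, stood at 24.3, 0.0152 to 0.387 and 20.5 to 24.7 CPM, and IER3, an early response gene, at 145, 33.5 to 51.96 and 111 to 141 CPM. All 4 were called in both comparisons (adjusted p at most 9.53e-05 with edgeR). The fall of SPRY4 on the log2 scale was exceeded within these 3 lists by that of EGR3 (-7.35) but not by those of ETV4 (-3.21), ETV5 (-1.63) or DUSP6 (-2.76).

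**Figure D5:**
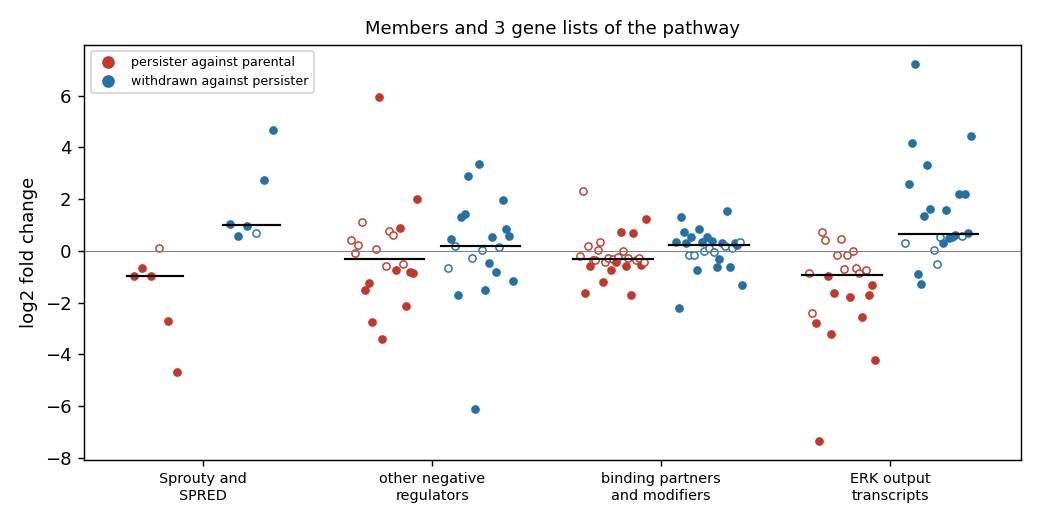
Log2 fold change of each of the 6 members and of the genes of 3 pathway lists, for persister against parental cells (red) and withdrawn against persister cells (blue); filled points have an adjusted p under 0.05 and black lines are medians. The members' medians lie at -0.97 and 1.00, those of the other negative regulators at -0.30 and 0.17, of the binding partners at -0.31 and 0.23, and of the ERK output transcripts, close to the members in the first comparison, at -0.93 and 0.66.

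Patterns across the 11 libraries were compared with those of 9788 protein-coding genes, by Pearson's r of log2 CPM, as a description with no test, since the libraries share their 3 groups. For SPRY2 the closest genes were MOSMO, a regulator of Hedgehog signalling (r = 0.999), and DUSP6 (0.998). For SPRY4 they were ETV5 (0.997) and TTBK2, a kinase of cilium formation (0.990). ETV5 stood at 141 CPM in parental and 45.5 ± 7.01 CPM (SD, n = 5) in persister cells, 3.10-fold lower against 25.9-fold for SPRY4. The correlation does not depend on the size of a change. For SPRED1 the closest were IBTK (0.995) and the transcription factor SP1 (0.993), for SPRED2 HOXA3 (0.987) and PHIP (0.984), and for SPRED3 GPD1L (0.984) and TRIM62 (0.982). For SPRY1 they were KANSL3 (0.947) and the adhesion molecule ICAM1 (0.939). No gene passed r = 0.95 with SPRY1, whereas 595 did with SPRY2, 489 with SPRED1, 341 with SPRY4, 180 with SPRED2 and 32 with SPRED3.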

How the data were processed

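RNA from 11 samples was column-purified and sequenced as stranded poly(A) libraries, per the labels' protocols. The submitters' processing notes name bcl2fastq, HISAT2, HTSeq and the build hg38. Versions of these tools, strand setting and annotation release were not given in the sources used here. Raw read counts per gene were deposited by the authors and used unchanged. All 58721 gene IDs matched GENCODE release 29.

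The fit used edgeR 4.0.16 under R 4.3.3 (low counts removed by filterByExpr with a minimum count of 10 and minimum total of 15, TMM scaling, robust quasi-likelihood fit of all 11 libraries with 3 groups, 8 residual degrees of freedom). It was also run on simulated data, in which each gene had the same spread in every library. Such data cannot show whether the parental library varies like the others. Log2 CPM used a prior count of 2. Alternatives were other scalings, DESeq2 1.42.0, limma-voom (limma 3.58.1), other filters, fewer libraries and the culture number as a block.

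Members, lists and tests were chosen with earlier results of these data known. Named genes were the members, up to 4 called genes with the smallest adjusted p in each pathway list and comparison, the called partner with the largest change and the 2 genes most like each member in pattern; NF1, SPRY3, SPRY4-AS1 and the markers were named after their values were seen. A gene that the rule names is not reported here. The ETS core motif was added after the promoters were read.

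Withdrawn samples carry the number of their persister culture. Neither the fit of 3 groups nor the permutation test of member pairs uses that pairing, which enters as an alternative, printed beside the results it changes. Libraries that share a number had correlations of 0.0484 to 0.0909 in their deviations from the group means. For each persister culture this was above its highest correlation with a withdrawn library of another number, which was -0.0158 to 0.0439.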

Additional observations from a re-analysis of the deposited data

Results flagged for a closer look

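The values of 2 libraries stood far from the others of their group by Dixon's test at 95%, which by chance marks about 1 in 20 groups, out of 12 groups of 5 examined. SPRY2 in persister culture 2 stood at 57.8 CPM, against 35.3 to 41.7 CPM in the other 4. SPRED3 in persister culture 5 stood at 20.4 CPM, against 9.84 to 11.1 CPM in the other 4.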

How the results depend on the processing

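SPRY2, SPRY4 and SPRED2 kept their calls and directions in persister against parental and in withdrawn against persister cells under all alternatives, and SPRED1 and SPRED3 did so in the latter. For SPRED2 in persister against parental cells, the largest adjusted p was only just under the threshold. With only the 2 groups in the fit, 3 instead of 5 members were called in persister against parental cells and 1 instead of 0 in withdrawn against parental cells. Leaving out 1 library gave 4 to 5, 5 to 6 and 0 to 0 members called in the 3 comparisons, and all 6 were called after withdrawal with the replicate block, which changed no other member's call. Of the 15 member pairs, 10 passed, 10 to 11 without 1 culture, and 0 in the sign-flip test over same-numbered pairs (replicate block), whose smallest p is 0.0625. Over all genes the counts higher and lower in persister against parental cells were 3819 and 3572, and 1354 and 1215 with the 6 libraries. In withdrawn against parental cells they were 74 and 28, but 775 and 409 with DESeq2, 3483 and 3110 with the 6 libraries, 1241 and 845 without persister cultures 1 and 5, and 19 to 374 and 4 to 184 without 1 library; the lower count was 52 with limma-voom and 49 with the stricter filter. The cause was not tested. The lowest count of a member in any library was 556.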
